A study of Rattus norvegicus with 9 samples.

Results

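Lysophospholipid receptors and a group of glial G protein-coupled receptors were examined in oligodendrocyte progenitor cells of newborn rats. The genes were Lpar1, S1pr1, S1pr2, S1pr3, S1pr5, Gpr37, Gpr37l1, Adgrg1 and Gpr155. They were taken by name, with every probe annotated to each of them and to no other gene, which gave 9 of the 12167 genes measured and 18 of the 16865 probes with a single gene symbol. Lpar1 and Gpr155 were chosen by differences between cell populations in their probe intensities, among other reasons, so the population values below are descriptions with 95% intervals, and no p-value is given for them.

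RNA came from cultured oligodendrocyte progenitors divided into 3 populations by surface antigens. The population called O4 carried the O4 sulphatide antigen of late progenitors and was NG2 negative. The population called NG2/A2B5 carried both the NG2 proteoglycan and the A2B5 ganglioside antigen of early progenitors, and the population called NG2 carried NG2 alone. No treatment, genetic change, strain or number of animals is given in the sources used here, and neither is the method of separation. Each population was hybridised to 3 arrays in a single colour, which bear the numerals I to III. The study used 3 cultures, but no label says that a numeral stands for a culture, so tests measure the spread between these arrays, which may be technical.

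Lysophosphatidate and sphingosine 1-phosphate are signalling lipids made from membrane phospholipid and from ceramide. Their receptors couple to G proteins that inhibit adenylyl cyclase, mobilise calcium or act on the actin cytoskeleton, on which progenitor processes are built. GPR37, GPR37L1 and ADGRG1 are glial receptors outside the lysophospholipid family. GPR37 holds back the maturation of oligodendrocytes, GPR37L1 is found in astrocytes and oligodendrocyte progenitors, and ADGRG1 (also named GPR56) is an adhesion receptor that keeps progenitors dividing. GPR155 is a lysosomal membrane protein that senses cholesterol upstream of mTORC1.

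Probe intensities are the deposited scaled values, and array medians lay between 1.05 and 1.07. Between 34926 and 34975 of the 35129 probes had a value on each array, and the 25th percentile lay between 0.205 and 0.255. A reading below the 25th percentile of its array is called dim here. The labelled cell type was checked with 14 oligodendrocyte lineage markers, of which 12 were measured and 9 were above the 25th percentile on all arrays. Sox10, Cnp, Bcas1 and Cspg4 (which encodes NG2) read between 29.7 and 339, whereas the myelin genes Mbp and Mog stayed between 0.0581 and 0.802 and each was dim on 3 arrays. The markers of either stage did not all read alike: the myelin gene Mag read 8.77 to 16.8, and the progenitor markers Pdgfra and Olig2 read only 0.213 to 0.917 and 0.292 to 0.709. These ranges pool the populations. On the log2 scale Cspg4 averaged 7.22 across NG2 arrays, 7.07 across NG2/A2B5 arrays and still 6.92 across O4 arrays. No array read Cspg4 below 92.1, so the RNA values do not show O4 to be NG2 negative. Mag and Mog had their highest population mean in O4, whereas Mbp had its lowest there. Of 8 measured astrocyte markers 4 were above the 25th percentile on all arrays, and of 10 microglial markers only Itgam was. The microglial genes C1qa, C1qb and C1qc were dim on all 9 arrays.

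The 9 receptor genes spanned a wide range of signal. Of the 18 probes, 11 were above the 25th percentile on every array with a value, and 6 of the 9 genes had a probe above the array median on every array with a value. The other 3 genes, S1pr1, S1pr3 and S1pr5, did not. In all 3 readings were missing, 1 of S1pr5 and 2 of Gpr155. Levels of different probes are not compared, because brightness depends on the probe. Where a gene had several probes, probe 1 is the one with the highest mean over the arrays, and it represents the gene in every count over genes.

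**Figure D1:**
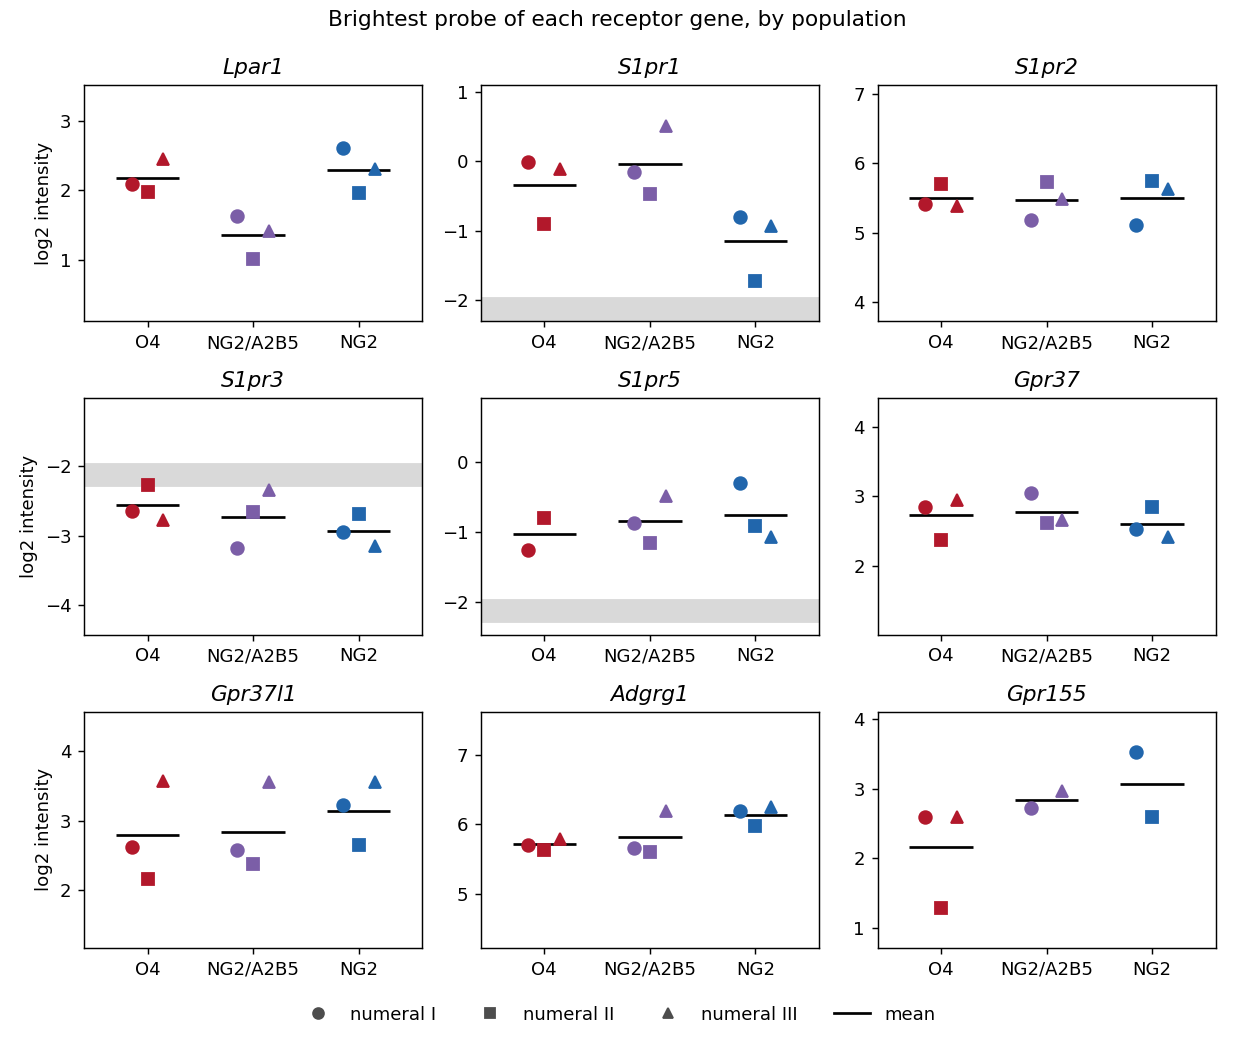
Log2 intensity of probe 1 of each of the 9 receptor genes by cell population, with 1 point per array, the numeral as the marker shape, the population as colour and the mean as a bar; the grey band spans the 25th percentiles of the 9 arrays. Lpar1 is lowest in NG2/A2B5, S1pr1 is lowest on average in NG2, and the 3 arrays of numeral III lie together for Gpr37l1.

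Among the lysophosphatidate receptors, Lpar1, the main receptor of this lipid in maturing oligodendrocytes, had its lowest readings in NG2/A2B5 on probe 1. Lpar1 probe 1 read 4.25, 3.95 and 5.49 in the O4 arrays I, II and III. It read 3.11, 2.02 and 2.66 in NG2/A2B5 and 6.11, 3.89 and 4.95 in NG2. Every NG2/A2B5 array was below every array of the other populations, while O4 and NG2 overlapped. On the log2 scale O4 averaged 2.17 ± 0.25 (SD, n = 3), NG2/A2B5 averaged 1.35 ± 0.31 (SD, n = 3) and NG2 averaged 2.29 ± 0.33 (SD, n = 3). NG2/A2B5 minus NG2 was -0.94 on the log2 scale (95% interval -1.50 to -0.38), and within numerals I, II and III it was -0.98, -0.94 and -0.90. O4 minus NG2/A2B5 was 0.82 (95% interval 0.26 to 1.38), with 0.45, 0.96 and 1.04 within the numerals. O4 minus NG2 was -0.12 (95% interval -0.68 to 0.44).

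The other Lpar1 probes did not show this separation. Probe 1 is annotated to a GenBank record other than the RefSeq mRNA, and probes 2 and 3 are annotated to the RefSeq mRNA. Probe 2 was above the median on all arrays and read 2.63, 2.56 and 2.29 in O4, 2.58, 2.36 and 1.83 in NG2/A2B5, and 2.21, 3.40 and 2.06 in NG2. All 3 populations overlapped on probe 2, where NG2/A2B5 minus NG2 was -0.16 (95% interval -0.72 to 0.40) and O4 minus NG2/A2B5 was 0.16 (95% interval -0.40 to 0.72). Both have the sign of probe 1 and are smaller than on probe 1. Probe 3 read 0.193 to 0.582, was dim on 1 array and had overlapping populations, with NG2/A2B5 minus NG2 at -0.63 (95% interval -1.37 to 0.10). When the log2 values of the probes were averaged, NG2/A2B5 minus NG2 was -0.58 and O4 minus NG2/A2B5 was 0.37. Lpar2 and Lpar3, the other lysophosphatidate receptors measured of 6 listed, each had dim readings.

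The sphingosine 1-phosphate receptors differed in how the populations were ordered. S1pr1, which couples to inhibitory G proteins and is carried by progenitors and astrocytes, read 0.996, 0.536 and 0.925 in O4 on probe 1. It read 0.900, 0.719 and 1.42 in NG2/A2B5 and 0.575, 0.304 and 0.527 in NG2. Every NG2/A2B5 array was above every NG2 array, and within each numeral NG2 was the lowest population. On the log2 scale O4 averaged -0.34 ± 0.49 (SD, n = 3), NG2/A2B5 averaged -0.039 ± 0.50 (SD, n = 3) and NG2 averaged -1.15 ± 0.50 (SD, n = 3). NG2/A2B5 minus NG2 was 1.11 (95% interval 0.24 to 1.98) and O4 minus NG2 was 0.81 (95% interval -0.06 to 1.68), the latter with 0.79, 0.82 and 0.81 within the numerals. S1pr1 probes 2 and 3 were dim on 3 and 8 of the 9 arrays and gave NG2/A2B5 minus NG2 the other sign, at -0.78 (95% interval -1.85 to 0.29) and -0.66 (95% interval -2.51 to 1.19). Averaged over the probes, that difference was -0.11.

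S1pr2, a receptor that couples to several classes of G protein, was bright on probe 1 at nearly the same mean in all populations. It read 42.8, 52.0 and 41.7 in O4, 36.5, 53.1 and 44.6 in NG2/A2B5, and 34.5, 53.7 and 49.8 in NG2. The population differences on probe 1 were 0.0035 (O4 minus NG2, 95% interval -0.52 to 0.53), 0.03 (O4 minus NG2/A2B5, 95% interval -0.49 to 0.56) and -0.03 (NG2/A2B5 minus NG2, 95% interval -0.56 to 0.49). The readings overlapped in every pair of populations, and in each population numeral II was the highest. S1pr2 probe 2, annotated to the same mRNA, read 0.437, 0.588 and 0.551 in NG2/A2B5, below all arrays of O4 (0.803, 0.701 and 0.615) and of NG2 (0.670, 0.797 and 0.815). NG2/A2B5 had the lowest mean on both S1pr2 probes, and the probes differed in the size of its difference from the others: NG2/A2B5 minus NG2 was -0.54 on probe 2 (95% interval -0.99 to -0.09).

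S1pr3 and S1pr5 gave little signal. S1pr3 probe 1 was dim on all 9 arrays, with readings of 0.111 to 0.207, and probe 2 ranged from -0.108 to 0.438 and was dim on 4 arrays. S1pr5, the sphingosine 1-phosphate receptor best known from the oligodendrocyte lineage, read 0.417 and 0.574 in O4 I and II, 0.545, 0.450 and 0.713 in NG2/A2B5, and 0.816, 0.530 and 0.474 in NG2, with O4 III missing. The S1pr5 populations overlapped in every pair, and O4 minus NG2 was -0.27 (95% interval -1.03 to 0.49). S1pr5 probe 2 was dim on 8 arrays.

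Gpr37, with 1 probe, was at a like level in all populations. It read 7.17, 5.19 and 7.74 in O4, 8.23, 6.11 and 6.34 in NG2/A2B5, and 5.76, 7.21 and 5.32 in NG2. The populations overlapped in every pair, and the differences were 0.13 (O4 minus NG2, 95% interval -0.38 to 0.63), -0.05 (O4 minus NG2/A2B5, 95% interval -0.56 to 0.46) and 0.18 (NG2/A2B5 minus NG2, 95% interval -0.33 to 0.68).

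Gpr37l1 differed more between the numerals than between the populations. It read 6.18, 4.48 and 11.9 in O4 I, II and III, 5.97, 5.18 and 11.8 in NG2/A2B5, and 9.36, 6.25 and 11.8 in NG2. In each population numeral III was the highest and numeral II the lowest. O4 minus NG2 was -0.36 (95% interval -1.41 to 0.70) and the populations overlapped in every pair.

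Adgrg1 was bright on its single probe and lower in O4 than in NG2 on every array. It read 52.1, 49.7 and 55.5 in O4, 50.3, 48.4 and 73.2 in NG2/A2B5, and 72.9, 63.2 and 75.8 in NG2. On the log2 scale O4 averaged 5.71 ± 0.08 (SD, n = 3), NG2/A2B5 averaged 5.81 ± 0.33 (SD, n = 3) and NG2 averaged 6.14 ± 0.14 (SD, n = 3). O4 minus NG2 was -0.43 (95% interval -0.87 to 0.02), with -0.49, -0.35 and -0.45 within the numerals. NG2/A2B5 minus NG2 was -0.32 (95% interval -0.77 to 0.12), and NG2/A2B5 III lay among the NG2 arrays while I and II lay near those of O4. In these bulk samples fewer cells with a transcript and less of it per cell cannot be told apart.

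Gpr155 probe 1 was lower in O4 than in the other populations on the arrays that had a value. It read 6.03, 2.44 and 6.01 in O4, 6.57 and 7.82 in NG2/A2B5 I and III, and 11.6 and 6.05 in NG2 I and II. NG2/A2B5 II and NG2 III were missing, so the fit rests on 7 values. O4 minus NG2 was -0.91 (95% interval -2.15 to 0.34) and O4 minus NG2/A2B5 was -0.69 (95% interval -1.93 to 0.56). O4 held a reading for numeral II, its lowest, where NG2/A2B5 had none. Within numerals O4 minus NG2/A2B5 was -0.12 in I and -0.38 in III, and O4 minus NG2 was -0.94 in I and -1.31 in II. Leaving out 1 array gave O4 minus NG2/A2B5 values of -0.90 to -0.25 and O4 minus NG2 values of -1.37 to -0.44. The highest O4 reading, 6.03, was next to the lowest NG2 reading, 6.05. Gpr155 probe 2 had all 9 values, between 2.02 and 3.03, and was above the median on every array. Its populations overlapped in every pair, with O4 minus NG2 at -0.07 (95% interval -0.56 to 0.42) and O4 minus NG2/A2B5 at -0.12 (95% interval -0.60 to 0.37). Gpr155 probe 3 was dim on 1 array and also had overlapping populations.

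**Figure D2:**
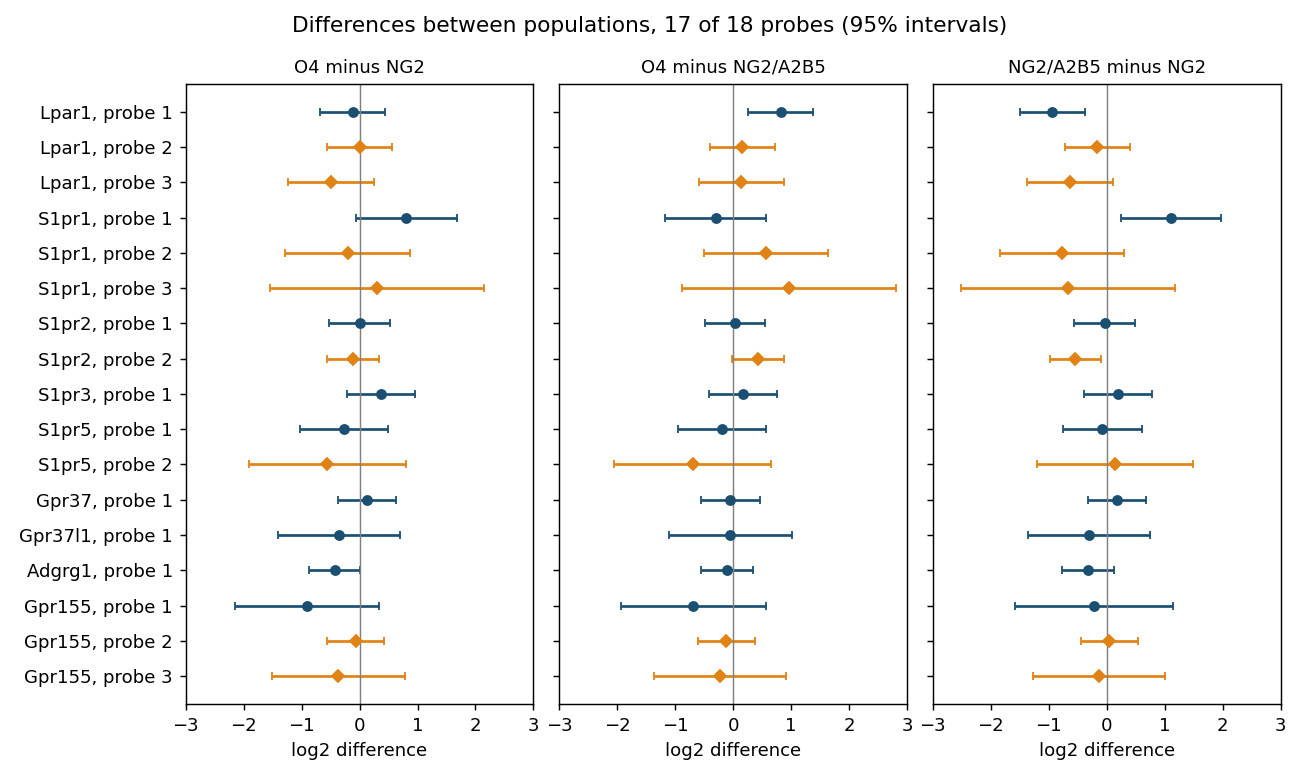
Log2 difference between populations for 17 of the 18 probes, as points with 95% intervals (blue circles for probe 1, orange diamonds for the others). S1pr3 probe 2 is left out because 1 of its readings was below 0. For Lpar1, S1pr1 and Gpr155 the difference of probe 1 is larger than that of probe 2 or has another sign.

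Few genes passed the test between populations. With limma and Benjamini-Hochberg adjustment, 0.00822% of genes were called at an adjusted p under 0.05 for O4 minus NG2, 0.00822% for O4 minus NG2/A2B5 and 0% for NG2/A2B5 minus NG2, and no receptor gene was among them. At an unadjusted p under 0.05 there were 973, 399 and 545 genes. The median absolute log2 difference over all genes was 0.241 for O4 minus NG2, 0.184 for O4 minus NG2/A2B5 and 0.194 for NG2/A2B5 minus NG2. For the numerals it was 0.266 for II minus I, 0.231 for III minus I and 0.316 for III minus II. The arrays of O4 lay wholly below those of NG2 for 2 of the 9 receptor genes, Adgrg1 and Gpr155, against 6.55% of all genes, and wholly above for 0 against 7.50%. For O4 against NG2/A2B5, Lpar1 was wholly above (5.35% of all genes) and Gpr155 wholly below (3.43%). For NG2/A2B5 against NG2, S1pr1 was wholly above (5.20% of all genes) and Lpar1 wholly below (5.05%). Lpar1 and Gpr155 were chosen with these contrasts in view, and nothing is read from these counts.

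The arrays were then compared by numeral, with the population as a term of the model. Whether differences between numerals also played a part in choosing the receptor genes is not stated, so these tests are not independent support for the choice. With limma and Benjamini-Hochberg adjustment over all genes, 0.230% of genes were called for II minus I, 0% for III minus I and 3.48% for III minus II. Of the receptor genes, Gpr37l1 was called in III minus II, and none was called in the other numeral contrasts. The median of all genes was 0.10 for II minus I, 0.02 for III minus I and -0.08 for III minus II, whereas the median of the 9 receptor genes was -0.19, 0.16 and 0.34. Of the 9, 7 were lower in II than in I and 7 were higher in III than in II by the sign of the fitted difference. Of all genes, 61.5% were higher in II than in I and 43.1% were higher in III than in II.

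Gpr37l1 was 2.25-fold higher in numeral III than in numeral II, a log2 difference of 1.17 (95% interval 0.75 to 1.59, limma adjusted p = 0.036 over all genes). Within populations the difference was 1.41 for O4, 1.19 for NG2/A2B5 and 0.92 for NG2. The 3 arrays of numeral III lay between 11.8 and 11.9, above all others, and the log2 SD over them was 0.0067 (SD, n = 3) against 0.24 in II (SD, n = 3) and 0.36 in I (SD, n = 3). III minus I was 0.75 (95% interval 0.34 to 1.17, limma adjusted p = 0.26) and II minus I was -0.42 (95% interval -0.84 to 0.0027, limma adjusted p = 0.292). Its arrays lay wholly higher in III than in II, as for 10.5% of all genes, and wholly higher in III than in I, as for 10.3%. No receptor gene lay wholly lower in III than in I (8.20% of all genes) or wholly lower in II than in I (6.83%). The F test over the numerals called 0.674% of all genes and none of the receptor genes, with a limma adjusted p of 0.0733 for Gpr37l1. The call in III minus II was lost when any 1 of the 9 arrays was left out (limma adjusted p 0.0711 to 0.157), with differences of 1.06 to 1.34, and also with probes averaged per gene (0.0543) or tested singly (0.0951). Gpr37l1 has 1 probe, so its difference stayed at 1.17 when probes were averaged or tested singly. There only its estimated spread and the adjustment over all tests changed. Over all genes, leaving out 1 array brought the 423 calls in III minus II to between 0 and 5.

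Sums of some cell type marker lists also differed between the numerals, while Gfap was the only marker called in III minus II. The summed intensity of the 12 measured oligodendrocyte lineage markers was 935 to 939 in numeral III, 609 to 694 in II and 661 to 815 in I. Of the 12 markers 8 were higher and 4 lower in III minus II, with a median of 0.47. Most of the sum came from a few bright probes, such as Bcas1 at 207 to 339. Olig2, at 0.292 to 0.709, was among the lower ones, with a log2 mean of -1.30 in III against -0.57 in II. No lineage marker was called in III minus II by limma with Benjamini-Hochberg adjustment, and Cd9 had the smallest adjusted p, 0.0507, at a log2 difference of 0.94. The summed intensity of the 8 measured astrocyte markers was 82.2 to 107 in III, 49.3 to 83.0 in II and 61.8 to 71.3 in I. Gfap read 0.113 to 0.597, was dim on 3 arrays and was called higher in III than in II (log2 difference 1.72, limma adjusted p = 0.0243). Its log2 mean was -1.08 in III and -2.81 in II. The II mean was below the 25th percentile of every II array, so the size of that difference is uncertain. Of the 8 astrocyte markers 4 were higher and 4 lower in III minus II, with a median of -0.05. Gja1 differed by -2.06 (limma adjusted p = 0.0684), and most of the sum came from Slc1a3, which read 38.6 to 96.4. The 10 microglial markers summed to 5.93 to 7.79 in III, 5.56 to 10.4 in II and 6.63 to 8.49 in I. The 6 fibroblast and pericyte markers summed to 22.8 to 27.1 in III, 26.1 to 32.8 in II and 21.4 to 22.7 in I, so every II array was above every I array. The 4 measured neuron markers summed to 6.87 to 12.7 in III, 11.6 to 16.2 in II and 10.2 to 13.0 in I, and the 5 measured endothelial markers to 5.67 to 7.20, 5.81 to 8.16 and 6.11 to 6.59. The part of these markers in the Gpr37l1 result was not tested.

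Other receptor genes were also lowest in numeral II on probe 1, a pattern described after the values were seen. Of the 7 receptor genes with all 9 values, Lpar1, S1pr1, Gpr37l1 and Adgrg1 had array II as the lowest of its population in all 3 populations, against 7.72% of all genes, and S1pr2 had it as the highest, against 15.6%. None of these passed the test over all genes except Gpr37l1 in III minus II. S1pr1 probe 1 had III minus II at 0.85 (95% interval 0.38 to 1.33, limma adjusted p = 0.0768) and II minus I at -0.71 (95% interval -1.18 to -0.24, limma adjusted p = 0.173). S1pr1 probe 2, dim on some arrays, was highest in II in O4 (0.209, 0.459 and 0.299 in I, II and III) and in NG2 (0.379, 0.553 and 0.211). It was lowest in II in NG2/A2B5 only. Lpar1 probe 2 was highest in II in NG2 and lowest in II in no population. S1pr2 had II minus I at 0.49 (95% interval 0.13 to 0.84, limma adjusted p = 0.198), with arrays of II from 52.0 to 53.7 and of I from 34.5 to 42.8. Arrays of S1pr2 were wholly higher in II than in I, as for 14.9% of all genes, and wholly lower in III than in II, as for 16.1%.

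Gpr155 probe 1 was lower in II in the populations where II was measured. Its II minus I was -1.10 (95% interval -1.62 to -0.57, limma adjusted p = 0.138) and its III minus II was 1.26 (95% interval 0.63 to 1.89, limma adjusted p = 0.0833), the latter resting on O4 for a comparison within 1 population. Gpr155 probe 2 ran the other way, and all its II arrays (2.77, 2.65 and 3.03 in O4, NG2/A2B5 and NG2) were above all its I arrays (2.34, 2.26 and 2.40). The II minus I difference of probe 2 was 0.27 (95% interval -0.17 to 0.71, limma adjusted p = 0.572 over all probes). Lpar1 probe 2 likewise was lower on every III array than on every II array, with III minus II at -0.42 (95% interval -0.91 to 0.07, limma adjusted p = 0.363 over all probes), against 0.40 on probe 1 (95% interval -0.02 to 0.83, limma adjusted p = 0.225).

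**Figure D3:**
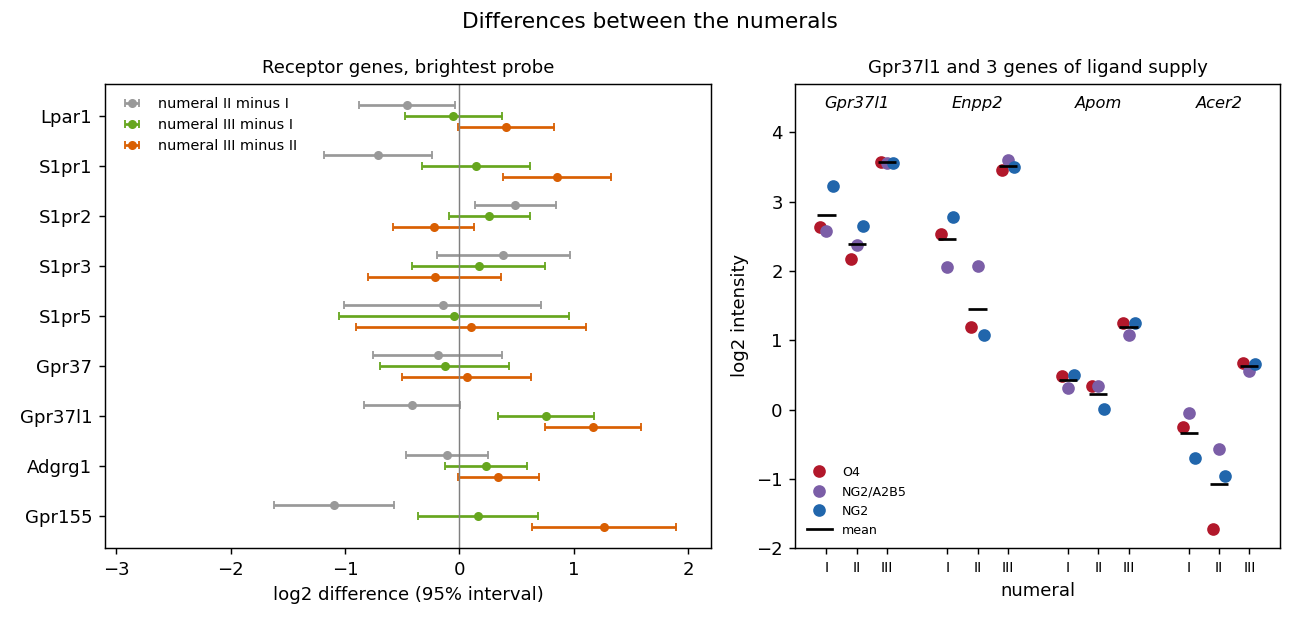
Left, log2 difference between numerals for probe 1 of the 9 receptor genes, with 95% intervals. Right, log2 intensity of Gpr37l1, Enpp2, Apom and Acer2 on each array by numeral, with the population as colour and the mean as a bar. The 4 genes on the right were picked because they were called higher in III than in II. That their III arrays lie above their II arrays is therefore no further support. Adgrb1, also called higher, and Cnr1, called lower, are not shown.

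The promoters of S1pr1, Gpr37l1, Adgrg1 and Gpr155 are shown because probe 1 of these genes was lowest in numeral II wherever II was measured. For Gpr155 this leaves out NG2/A2B5, and in NG2 it compares II with I only. Probe 2 of S1pr1 and probe 2 of Gpr155 did not share this pattern. Each stretch runs from 250 bases before to 50 bases after the gene start, in RefSeq assembly GRCr8, 5′ to 3′ on the gene's strand, which is the minus strand for all 4. RefSeq promoters were matched for 8 of the 9 genes, all but Lpar1. Capitals mark the motifs searched on both strands, namely the GC box GGGCGG, the E-box CACGTG, the TATA box TATAAA and the SOX core ACAAAG, none of which overlap here.
Gpr37l1, chr13:49157155-49157454: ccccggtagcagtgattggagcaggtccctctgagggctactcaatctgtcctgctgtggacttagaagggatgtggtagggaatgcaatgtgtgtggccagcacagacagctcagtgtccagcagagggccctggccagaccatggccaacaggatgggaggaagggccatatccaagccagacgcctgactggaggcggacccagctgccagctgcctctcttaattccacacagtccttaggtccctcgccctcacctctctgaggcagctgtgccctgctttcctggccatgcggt
S1pr1, chr2:206314021-206314320: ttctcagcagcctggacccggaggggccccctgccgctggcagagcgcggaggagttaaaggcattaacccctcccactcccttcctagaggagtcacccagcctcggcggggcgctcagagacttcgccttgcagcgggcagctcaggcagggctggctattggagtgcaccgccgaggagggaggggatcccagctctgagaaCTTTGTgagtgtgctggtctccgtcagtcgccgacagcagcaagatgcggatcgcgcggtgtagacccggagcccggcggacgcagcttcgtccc
Adgrg1, chr19:10047089-10047388: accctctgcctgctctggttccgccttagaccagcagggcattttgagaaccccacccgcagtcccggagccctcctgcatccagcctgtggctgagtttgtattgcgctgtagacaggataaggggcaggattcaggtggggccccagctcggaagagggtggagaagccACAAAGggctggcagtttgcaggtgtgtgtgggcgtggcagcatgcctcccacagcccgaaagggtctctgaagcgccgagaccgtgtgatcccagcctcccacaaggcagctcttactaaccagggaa
Gpr155, chr3:78677754-78678053: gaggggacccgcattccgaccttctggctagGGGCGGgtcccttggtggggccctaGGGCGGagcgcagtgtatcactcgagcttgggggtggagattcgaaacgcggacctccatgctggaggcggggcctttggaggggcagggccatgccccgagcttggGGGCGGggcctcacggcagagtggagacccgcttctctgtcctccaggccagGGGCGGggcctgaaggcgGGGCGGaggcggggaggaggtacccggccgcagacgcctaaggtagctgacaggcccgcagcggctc

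The 4 promoters did not share any of these motifs. S1pr1 held 1 SOX core on the minus strand of the window at position -45 from the gene start, and Adgrg1 held 1 at -79. Of 33469 rat promoters of this length, 18.8% hold that core. Gpr155 held 5 GC boxes, a motif found in 33.1% of promoters, and Gpr37l1 held none of the 4. The E-box (6.42% of promoters) and the TATA box (14.2%) were in none of the 4 promoters shown. The ratio of observed to expected CpG was 0.185 in Gpr37l1, 0.359 in Adgrg1, 0.634 in Gpr155 and 0.698 in S1pr1, against a median of 0.392 over all promoters. Matches of letters describe the sequence and are not evidence that a factor binds there.

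Genes that make, break down and carry the receptor ligands were counted from lists chosen with earlier results of these data known. No gene of these lists was called between populations by limma with Benjamini-Hochberg adjustment. In III minus II, 193 of all 12166 genes were called higher and 230 lower, together 3.48%. Of 14 measured genes of lysophosphatidate metabolism, 1 was called higher in III than in II and 0 lower, with a list median of -0.07 against -0.08 for all genes. That gene was Enpp2, which encodes autotaxin, the secreted enzyme that makes lysophosphatidate. Enpp2 read 5.78, 2.29 and 10.9 in O4 I, II and III, 4.14, 4.21 and 12.1 in NG2/A2B5, and 6.88, 2.11 and 11.3 in NG2. All III arrays were above the others, and III minus II was 2.07 (95% interval 1.24 to 2.89, limma adjusted p = 0.0445). Of all genes, 10.5% had every III array above every II array and 10.3% had every III array above every I array.

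Of 10 measured genes of sphingosine 1-phosphate metabolism and transport, 2 were called higher in III than in II and 0 lower. The list median was 0.24, and 3.48% of all genes were called in either direction. Apom, which carries sphingosine 1-phosphate in plasma lipoprotein, read 2.10 to 2.38 in III and 1.01 to 1.27 in II, with III minus II at 0.96 (95% interval 0.60 to 1.32, limma adjusted p = 0.0414). Acer2, a ceramidase of the Golgi that frees sphingosine, read 1.48 to 1.59 in III and 0.303 to 0.677 in II on probe 1, with III minus II at 1.71 (95% interval 0.98 to 2.44, limma adjusted p = 0.0484). Acer2 probe 2 gave 0.35 (95% interval -0.16 to 0.86, limma adjusted p = 0.452 over all probes).

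Of 28 other G protein-coupled receptors of glia that were measured, 1 was called higher and 1 lower in III than in II. The list median was 0.15, and 3.48% of all genes were called in either direction. The adhesion receptor Adgrb1 read 1.62 to 2.24 in III and 1.01 to 1.16 in II (log2 difference 0.80, 95% interval 0.48 to 1.11, limma adjusted p = 0.044). Cnr1, the cannabinoid receptor, was called lower (limma adjusted p = 0.0414) with readings of 0.349 to 0.905 in II and of 0.0454 to 0.0901 in III, where all 3 were dim, so no fold is given. Among 10 genes of receptor desensitisation and 19 of lysosomal cholesterol and amino acid sensing (Gpr155 among them), none was called in any numeral contrast by limma with Benjamini-Hochberg adjustment. The medians of these lists for III minus II were -0.19 and -0.09. Of 3 proposed ligand genes of the glial receptors 2 were measured, and neither was called. None of the calls of Enpp2, Apom, Acer2, Adgrb1 and Cnr1 was kept when any 1 of the 9 arrays was left out, or with probes averaged per gene or tested singly, while each kept its direction. Acer2 also missed the threshold under quantile normalization (limma adjusted p = 0.0511), and its difference was 1.03 with probes averaged.

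For the 6 receptor genes above the 25th percentile on all arrays, the genes with the most similar profile were found among 8871 others that also were. The measure was the root mean square difference of mean-centred log2 profiles over the 9 arrays, so a low value means similar profiles. Gpr37l1 was nearest to Tpcn2, a lysosomal cation channel (0.0983), then Nfasc, a cell adhesion protein of the node of Ranvier (0.162), and Ripor2 (0.171), against a median of 0.598 over all candidates. Lpar1 was nearest to Parp14 (0.237), Evi2a (0.237) and Cygb, a globin (0.242), with a median of 0.561. S1pr1 was nearest to Myorg (0.211), Cbr1, a carbonyl reductase (0.238), and Thrb, a thyroid hormone receptor (0.264), with a median of 0.691.

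The SD of the receptor genes' own profiles over the 9 arrays was 0.251 for Adgrg1, 0.222 for S1pr2 and 0.224 for Gpr37, against 0.483 for Lpar1, 0.526 for Gpr37l1 and 0.619 for S1pr1. Adgrg1 was nearest to Kdelr1, a receptor that returns proteins to the endoplasmic reticulum (0.0858), then Bcdin3d (0.106) and Hadhb, an enzyme of mitochondrial fatty acid oxidation (0.111), with a median of 0.368. S1pr2 was nearest to Atxn2 (0.0852), Zeb1, a transcription repressor (0.0961), and Col5a3, a collagen chain (0.0984), with a median of 0.316. Gpr37 was nearest to Mrps11, a mitochondrial ribosomal protein (0.116), Sri (0.125) and Tdp1, a DNA repair enzyme (0.126), with a median of 0.336. All 9 arrays enter these values, and arrays of 1 numeral shared deviations, so likeness between profiles includes what the arrays share.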

How the data were processed

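Total RNA of 9 samples was amplified, labelled and hybridised to one-colour arrays with spiked controls, per the labels' protocols. The deposited table holds the authors' scaled intensity of 35129 probes on a linear scale, normalized before deposit; for scanner, software and exact scaling the sources used here give nothing. The intensities were used without renormalizing. The code -9999 was read as missing, and readings of 0 or less (291 to 352 per array) were replaced by the smallest reading above 0 on their array before log2. Of the probes, 16865 had 1 gene symbol, 165 several and 18099 none. Entrez identifiers of 16836 matched RefSeq GRCr8, used for names and promoters, and 1 symbol changed. The probe with the highest mean log2 stands for its gene.

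Population contrasts came from limma 3.58.1 in R 4.3.3 (lmFit, eBayes, two-sided; 6 residual degrees of freedom, prior 1.76), and numeral contrasts from a model with population as a term (4 residual degrees of freedom, prior 1.55). A call means p under 0.05 after Benjamini-Hochberg adjustment across the genes tested. The fits were run on simulated data with noise independent between arrays. Real arrays of 1 numeral shared deviations, so that run checks the code and not the error rate here. The number of arrays limits the precision. Numerals were not treated as pairing the samples. Samples were grouped by title. Alternatives were the numeral as a block, quantile normalization, a floor at the 25th percentile, no dim genes, the mean of the probes, all probes, trend and robust variance, no population term and each array left out. The receptor genes and the lists were chosen with earlier results of these data known. Other genes are named when they were called within a list, lay nearest to a receptor gene in profile, or served as cell type markers. Sox10, Cnp, Bcas1, Cspg4, Mbp, Mog, Mag, Pdgfra, Olig2, Itgam, Slc1a3, Gfap, Cd9 and the C1q genes were picked from the marker lists after their values were seen. The result of 1 gene list is not reported here.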

Additional observations from a re-analysis of the deposited data

How the results depend on the processing

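Counts of genes called by limma with Benjamini-Hochberg adjustment moved with the processing. O4 minus NG2 had 1 call, 0 with a floor at the 25th percentile, without dim genes or with trend and robust variance, and 2 with the mean of the probes or all probes. O4 minus NG2/A2B5 had 1, and 0 under the first 3 of these; NG2/A2B5 minus NG2 had 0, and 1 with the mean of the probes or all probes. The F test over populations had 1, 0 under those 3 and 2 under the mean of the probes or all probes. With floor, no dim genes, mean of the probes, all probes, trend and robust variance in that order, II minus I (28) had 402, 362, 2, 0 and 836 calls, III minus II (423) had 1290, 1213, 136, 0 and 1883, and the F test over numerals (82) had 920, 821, 36, 0 and 1818. III minus I (0) had 49, 25 and 312 under floor, no dim genes and trend. Without the population term, II minus I had 63 and the F test 242. Leaving out 1 array gave 1 to 2, 0 to 4 and 0 to 3 calls for the population contrasts in that order, 0 to 3, 0 to 2 and 0 to 5 for II minus I, III minus I and III minus II, 1 to 4 for the F test over populations and 0 to 2 over numerals. The all-probes count adjusts over more tests and an array left out removes a sample; the cause of the other shifts was not tested.

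The replicate block, with the numeral as a fixed term, gave 0 calls in O4 minus NG2, O4 minus NG2/A2B5, NG2/A2B5 minus NG2 and the F test over populations. As a random block, at a consensus correlation of 0.274, it gave 1, 1, 0 and 1, as without a block. Deviations of arrays with the same numeral correlated at 0.037 to 0.144 (9 pairs) and of different numerals at -0.107 to 0.0065 (18 pairs), over 12025 genes, so every array correlated best with its own numeral, a hint from the data and not the design.

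For single receptor genes, no called value changed sign. Gpr37l1 III minus II kept its direction in 16 of 16 other settings and its call in 5 of them, and lost it with the mean of the probes (limma adjusted p = 0.0543), all probes (0.0951) and each array left out. With the floor, without dim genes and with trend and robust variance, S1pr1 III minus II and Gpr155 II minus I and III minus II passed. S1pr2 II minus I and Gpr37l1 III minus I passed with trend and robust variance. Other settings weakened some of these. With all 9 arrays kept, Gpr155 III minus II ranged from 0.081 to 1.26 and its II minus I from -1.11 to -0.44. S1pr1 III minus II ranged from 0.49 to 0.86. Dim readings limit S1pr3, S1pr5 probe 2 and S1pr1 probes 2 and 3.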
